A study of Mus musculus with 20 samples.

Results

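The axis of the interleukins IL-12, IL-23 and IL-17 was followed here through 9 genes of the 52783 in the deposited gene table. They comprised the 5 subunit genes Il23a, Il12a, Il12b, Il27 and Ebi3, the cytokine gene Il17a, and the receptor genes Il17ra, Il23r and Il12rb1, all matched from Ensembl identifier to mouse symbol. The genes were chosen by name, with earlier results of the comparison between CD45+ cells of the 2 tumours known, and Il23a and Il17ra were among the genes the study singled out on that comparison. For these 9 genes, values of that comparison are therefore given as a description, with no test. Lists of other pathway genes are tested in it, and since they too were drawn up with earlier results known, their counts are no independent evidence of a direction.

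RNA was sequenced from cells sorted from mammary tumours that were grown from 66cl4 cells (metastatic) or 67NR cells (non-metastatic), 2 cell lines of the 4T1 breast cancer model, in the mammary fat pad of young adult female BALB/cJ mice with an intact immune system. Each tumour type was represented by 5 animals, and each tumour was sorted by the leukocyte surface protein CD45 into a CD45+ fraction of immune cells and a CD45- fraction without them, which gave 4 groups of 5 libraries and 20 libraries in all. No group received a treatment, and each tumour model is 1 cell line. A CD45+ library holds all leukocyte types together, and a CD45- library holds the tumour cells with stroma, so more cells of a type and more RNA per cell cannot be told apart.

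Library totals were 12960000 to 28080314 estimated counts. The gate was visible in the libraries: Ptprc, which encodes CD45, was at 15890 to 28449 normalised counts in CD45+ libraries and at 10.6 to 473 in CD45- libraries. Levels of the 5 leukocyte markers in CD45- cells were 0.322 to 0.873% of those in CD45+ cells in 66cl4 tumours and 0.990 to 2.34% in 67NR tumours. The title and the cell type field of the labels disagree for animals 5 and 6 of 66cl4. The title was used. Ptprc in the libraries of animals 5 and 6 was at 17697 and 20442 normalised counts under CD45+ titles. Under CD45- titles it was at 138 and 40.4, so Ptprc followed the titles. Only some results are also given without these animals, where stated. A normalised count is an estimated count divided by the size factor of its library.

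Interleukins of this family are built from 2 chains. IL-12 pairs the p35 chain (Il12a) with the p40 chain (Il12b), IL-23 pairs the p19 chain (Il23a) with the same p40 chain, and IL-27 pairs p28 (Il27) with EBI3 (Ebi3). Myeloid cells, dendritic cells in particular, are known sources of these chains. IL-12 drives natural killer cells and type 1 T cells to make interferon gamma, whereas IL-23 sustains T cells that make IL-17A, a cytokine that induces chemokines for neutrophils through the receptor chain IL-17RA. The receptors of IL-12 and IL-23 share the chain encoded by Il12rb1 and each add a second chain, IL-12R beta 2 or IL-23R.

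The reference table of RefSeq (GRCm38.p6) held the promoter of 5 of the 9 genes. Il12a, Il12b and Ebi3 are shown because they carried opposite differences between the CD45- cells of the 2 tumours, described further on. The sequences are the 250 bases before an annotated transcription start, 5′ to 3′ on the strand of the gene, in lower case. Capitals mark bases that match 1 of the searched elements.

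Il12a, first start, chr3:68690394-68690643, plus strand: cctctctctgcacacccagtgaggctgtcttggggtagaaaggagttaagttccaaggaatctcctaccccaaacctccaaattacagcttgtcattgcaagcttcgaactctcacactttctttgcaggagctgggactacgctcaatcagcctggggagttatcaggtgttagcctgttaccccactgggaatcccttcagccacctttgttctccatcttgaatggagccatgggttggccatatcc
Il12a, other start, chr3:68691174-68691423, plus strand: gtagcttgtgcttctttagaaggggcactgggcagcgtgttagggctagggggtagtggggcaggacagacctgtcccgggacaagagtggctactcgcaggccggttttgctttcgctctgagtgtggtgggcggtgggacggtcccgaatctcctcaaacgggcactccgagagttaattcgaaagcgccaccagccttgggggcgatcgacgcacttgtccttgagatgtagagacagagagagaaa
Il12b, chr11:44399813-44400062, plus strand: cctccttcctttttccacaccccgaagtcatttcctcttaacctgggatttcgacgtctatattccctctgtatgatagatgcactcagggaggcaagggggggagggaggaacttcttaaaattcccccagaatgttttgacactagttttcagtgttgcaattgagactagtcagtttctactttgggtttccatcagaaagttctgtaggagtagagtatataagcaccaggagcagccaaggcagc
Ebi3, chr17:55952373-55952622, plus strand: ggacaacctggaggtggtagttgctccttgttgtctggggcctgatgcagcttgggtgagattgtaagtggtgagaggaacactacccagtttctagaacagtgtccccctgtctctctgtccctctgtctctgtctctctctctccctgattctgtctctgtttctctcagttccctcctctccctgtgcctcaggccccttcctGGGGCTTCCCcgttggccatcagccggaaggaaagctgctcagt

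In these windows 4 elements were searched on both strands, namely the NF-kappaB motif, the TATA box TATAAA, the AP-1 element TGANTCA and the C/EBP element TTGCNNAA. The Ebi3 window held 1 stretch that fits the NF-kappaB motif, which reads on both strands, and 7.25% of the 32851 promoters in the table held that motif. The Il12a and Il12b windows held none of the 4 elements as spelled here. The other elements were found in 12.4% (TATA), 6.75% (AP-1) and 9.56% (C/EBP) of all promoters. A match of letters is a description of the sequence only.

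The order of the genes by level was read on the TPM scale, which divides by transcript length. Among subunits in CD45+ cells, Ebi3 was the most abundant, at 9.67 ± 3.06 TPM in 66cl4 and 13.6 ± 7.04 TPM in 67NR (SD, n = 5). Il12b followed at 5.35 ± 2.87 and 8.22 ± 2.48 TPM, and the ranges of these neighbours overlapped in both tumours. In 66cl4 CD45+ cells the next were Il12a at 2.01 ± 1.74, Il27 at 1.17 ± 0.485 and Il23a at 1.03 ± 0.757 TPM, whose ranges overlapped each other. In 67NR CD45+ cells Il27 stood at 2.66 ± 0.70 and Il12a at 0.991 ± 0.691 TPM, with overlapping ranges, and Il23a lay below both at 0.0409 ± 0.0447 TPM.

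**Figure D1:**
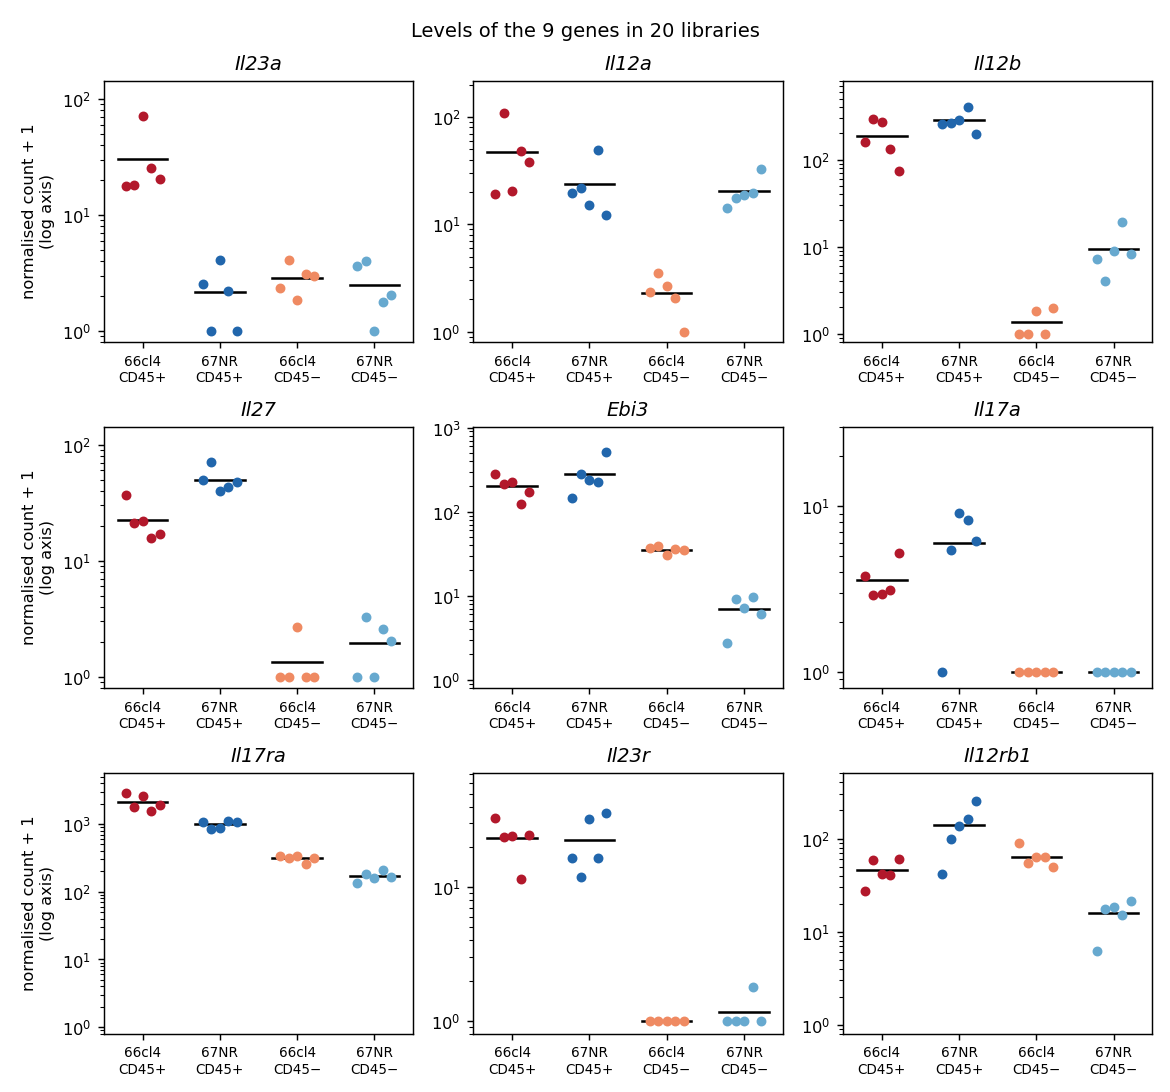
Levels of the 9 genes in each library, as normalised count plus 1 on a log axis, by group. Points are libraries and bars are means of 5. Il12a, Il12b, Ebi3, Il17ra and Il12rb1 separate the CD45- groups of the 2 tumours. Il23a stands above the other groups in 66cl4 CD45+ cells, and Il17a is at 0 in every CD45- library.

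In CD45+ cells, 8 of the 9 genes passed the low-count filter. By a log2 fold change beyond 1, Il23a, Il17ra and Il12a were higher and Il27 and Il12rb1 lower in 66cl4. Since the genes were chosen with these values known, nothing is read from how many moved. Over all genes tested, 5.01% were called higher and 6.82% lower, at an edgeR adjusted p under 0.05 and a log2 fold change beyond 1. Il23a, the chain particular to IL-23, was at 16.7, 17.2, 70.4, 24.2 and 19.4 normalised counts in 66cl4 animals 3 to 7. In 67NR animals 1, 4, 5, 6 and 7 it was at 1.56, 0, 3.05, 1.20 and 0. The groups did not overlap, and the log2 fold change was 4.54 (SE 0.722). Summed over libraries, 149 counts in 66cl4 stood against 5 in 67NR, a ratio of 26.2 with a 95% interval of 11.0 to 81.9 that covers counting error only. Animal 5 was far above the other 66cl4 animals, and without its CD45+ library the log2 fold change was 3.94.

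The partners of p19 and p35 moved otherwise. Il12b, the shared p40 chain, was at 157, 290, 272, 132 and 73.5 normalised counts in 66cl4 and at 256, 266, 288, 399 and 195 in 67NR, overlapping groups with a log2 fold change of -0.59 (SE 0.338). Il12a, the p35 chain of IL-12, was at 18.1, 107, 19.3, 47.3 and 37.2 in 66cl4 and at 18.7, 20.9, 14.2, 47.9 and 11.3 in 67NR. These groups overlapped too, and the log2 fold change of 1.04 (SE 0.543) was 0.45 without the CD45+ library of 66cl4 animal 4, the highest of all.

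Of the IL-27 chains, Il27 was at 36.2, 20.1, 21.2, 14.7 and 16.1 normalised counts in 66cl4 and at 48.4, 70.3, 38.6, 41.9 and 46.3 in 67NR. Every 67NR library lay above every 66cl4 library, with a log2 fold change of -1.18 (SE 0.302). Ebi3 ranged from 123 to 277 in 66cl4 and from 145 to 510 in 67NR, so its groups overlapped (log2 fold change -0.45, SE 0.293). Il27 shares 10.1% of its exonic bases with Apobr on the opposite strand, and Ebi3 shares 23.4% with the antisense gene Gm16712. Whether the counting used strand is not stated, so reads in these stretches cannot be assigned with certainty.

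Relative to the partner chain, per length, the p19 transcript was scarce in 67NR. The TPM of Il23a was a median of 22.7% of that of Il12b in 66cl4 CD45+ libraries (range 7.31 to 32.6%) and 0.371% in 67NR (range 0 to 1.31%). Il12a was at 53.4% of Il12b in 66cl4 (range 10.5 to 75.1%) and at 10.9% in 67NR (range 7.34 to 17.8%), and these ranges overlapped. Il27 was at 10.8% of Ebi3 in 66cl4 (range 10.6 to 14.8%) and at 20.8% in 67NR (range 10.3 to 37.7%), again with overlap. With the longest transcript in place of the median length, the first ratio was 20.7% and 0.339%.

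**Figure D2:**
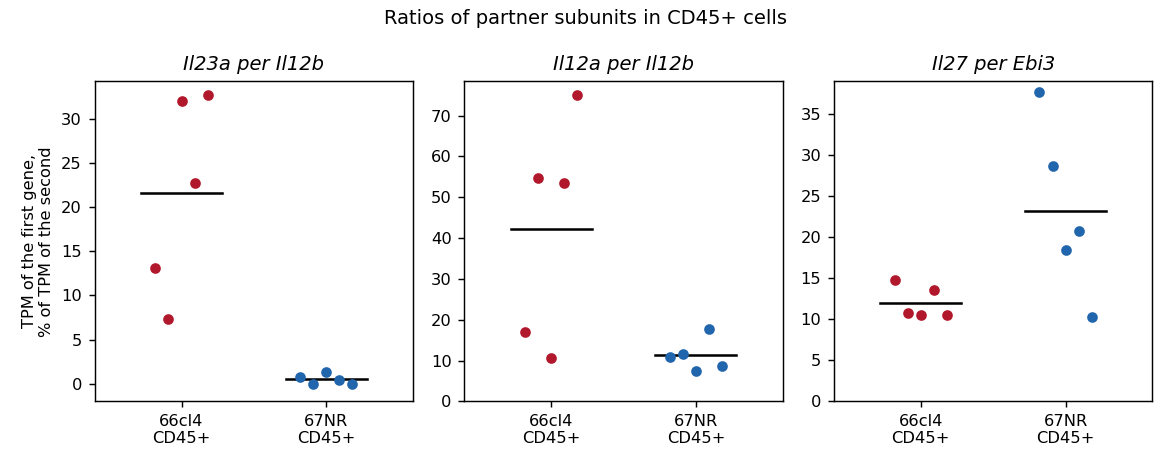
TPM of one chain as a percentage of the TPM of its partner chain in CD45+ libraries, on linear axes with a separate scale for each pair. Points are the 5 animals of each tumour and bars their means; only for Il23a per Il12b do the 66cl4 animals (7.31 to 32.6%) and the 67NR animals (0 to 1.31%) not overlap.

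The ligand Il17a was close to the limit of detection in CD45+ cells. It was at 2.78, 1.91, 1.93, 2.10 and 4.23 normalised counts in 66cl4 and at 0, 4.4, 8.13, 7.19 and 5.14 in 67NR, below the filter on low counts. Its receptor chain Il17ra was the most highly counted of the 9 genes. It was at 2875, 1800.2, 2592, 1539 and 1897 in 66cl4 and at 1057, 847, 862, 1117 and 1089 in 67NR, without overlap, with a log2 fold change of 1.12 (SE 0.173) that was 0.97 to 1.22 when single libraries were left out.

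The receptor chains of IL-12 and IL-23 differed from each other. Il23r was at 32, 22.9, 23.1, 10.5 and 23.7 normalised counts in 66cl4 and at 15.6, 11.0, 31.5, 15.6 and 35 in 67NR, with a log2 fold change of 0.05 (SE 0.381). Il12rb1 was at 26.4, 58.3, 40.5, 40 and 60.0 in 66cl4 and at 40.6, 97.8, 135, 161 and 254 in 67NR, and the log2 fold change was -1.57 (SE 0.392). Its groups overlapped through 67NR animal 1, the lowest of its group.

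The CD45+ groups also differed in summed levels of leukocyte marker lists. For the 6 neutrophil markers the sum ranged from 43616 to 123972 in the 66cl4 libraries and from 6974 to 51120 in the 67NR libraries, for the 7 macrophage markers from 49058 to 75880 and from 76433 to 117218, and for the 4 natural killer markers, among them Klra8 at 0 in all 66cl4 libraries, from 889 to 2176 and from 2012 to 13086. Only the macrophage sums did not overlap among these 3. The 7 dendritic cell markers (3203 to 5562 and 3456 to 5126) and the 7 T cell markers (1343 to 6145 and 1528 to 5322) overlapped. The part of these lists in the values above was not tested.

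The study did not single out genes on the same comparison in CD45- cells, although the 9 were chosen with earlier results of these data known. In CD45- cells the comparison was tested for all 9 except Il17a, which had no count in any CD45- library. Of the 9 genes, 4 passed the filter on low counts: Ebi3 and Il12rb1 rose in 66cl4, Il12a fell, and Il17ra did not pass the fold threshold. Of these 4, 2 were called higher and 1 lower, beside 13.2% and 18.9% of all genes tested. Il12a passed the filter through the 67NR libraries and Ebi3 through those of 66cl4. Their direction was largely set by that, so their p-values and their part in these counts are no independent support.

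Il12a was at 1.33, 2.49, 1.66, 1.06 and 0 normalised counts in CD45- cells of 66cl4 animals 3 to 7 and at 13.2, 16.5, 17.6, 18.7 and 31.7 in 67NR. All 67NR libraries were higher than all 66cl4 libraries, and the level was 12.4-fold lower in 66cl4 (log2 fold change -3.64, SE 0.472, edgeR adjusted p = 1.09e-05). Il12b differed in the same direction, with 0, 0, 0.832, 0 and 0.998 normalised counts in 66cl4 and 6.14, 3.0, 7.90, 18 and 7.16 in 67NR. It did not pass the filter, and an exact permutation test of the means, two-sided over 252 splits, gave p = 0.00794, the smallest these splits can give. The 2 counts in 66cl4 stood against 50 in 67NR, a ratio of 0.0427 (95% interval 0.00503 to 0.162, counting error only). Without 66cl4 animals 5 and 6 the permutation p of Il12b was 0.0536.

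Ebi3 was the reverse. It was at 35.8, 38.0, 29.1, 35.1 and 33.9 normalised counts in 66cl4 CD45- cells and at 1.75, 8.25, 6.15, 8.59 and 5.11 in 67NR, a narrow group far above the other. The level was 5.73-fold higher in 66cl4 (log2 fold change 2.52, SE 0.320, edgeR adjusted p = 8.94e-06). Its IL-27 partner Il27 was at 0 in 4 of 5 CD45- libraries of 66cl4 and at 0 to 2.25 in 67NR, and did not pass the exact permutation test (p = 0.405). Il23a, at 0.832 to 3.12 in 66cl4 and 0 to 3.0 in 67NR, did not pass it either (exact permutation p = 0.587).

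Il12rb1, the shared receptor chain, was at 87.6, 53.6, 62.4, 62.7 and 48.9 normalised counts in 66cl4 CD45- cells and at 5.26, 16.5, 17.6, 14.1 and 20.5 in 67NR. The lowest 66cl4 library was above the highest 67NR library, and the level was 4.33-fold higher (log2 fold change 2.12, SE 0.301, edgeR adjusted p = 2.63e-05). The sign was opposite to the log2 fold change of -1.57 in CD45+ cells, and the difference between the 2 was not tested. Il17ra was at 260 to 338 in 66cl4 and 132 to 211 in 67NR, 1.88-fold higher without overlap (log2 fold change 0.91, SE 0.127, edgeR adjusted p = 2.15e-05), under the fold threshold. Il23r had no count in 66cl4 CD45- cells and 1 count in 1 library of 67NR (exact permutation p = 1).

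**Figure D3:**
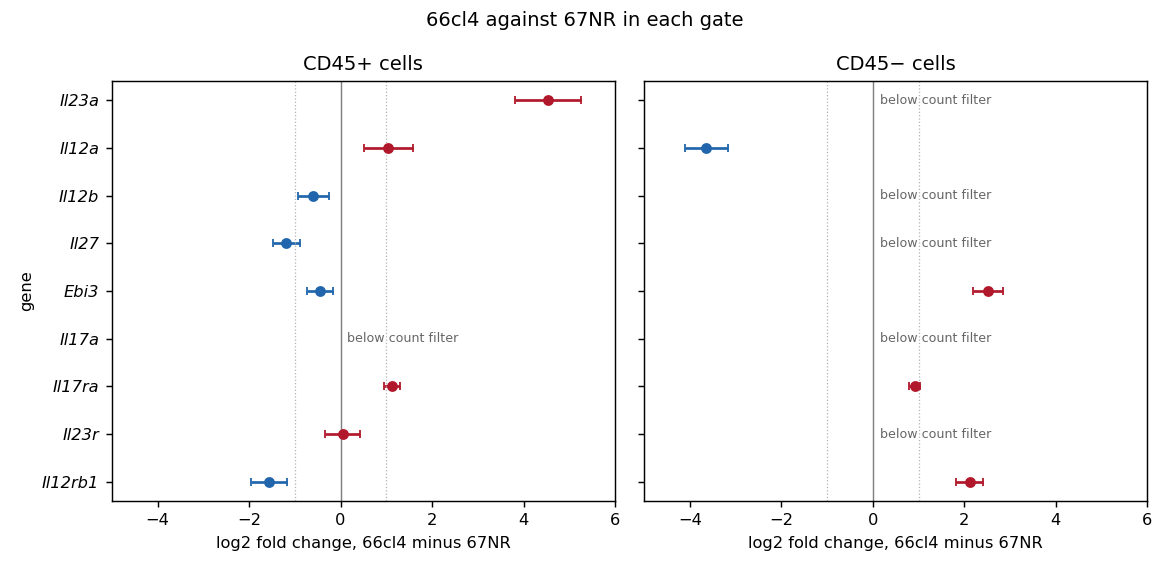
Log2 fold change of each gene between 66cl4 and 67NR in CD45+ and in CD45- cells, with bars of 1 SE from edgeR and dotted lines at the fold threshold. Il12a, Ebi3 and Il12rb1 have opposite signs in the 2 gates (1.04 and -3.64, -0.45 and 2.52, -1.57 and 2.12), though their CD45+ groups overlap. Genes below the count filter have no point.

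Marker lists of other cell types differed between these CD45- groups. The 5 leukocyte markers summed to between 259 and 1242 normalised counts in 66cl4 CD45- libraries and to 907 to 2059 in 67NR, and the 7 macrophage markers to 153 to 1886 and 1246 to 4399, overlapping ranges that lay higher in 67NR, as did Il12a and Il12b. The 6 neutrophil markers (149 to 507 and 628 to 922) and the 5 endothelial markers (517 to 1031 and 1033 to 4114) were higher in 67NR without overlap, whereas the 7 dendritic cell markers ranged from 1263 to 1651 in 66cl4 and from 910 to 1480 in 67NR. The dendritic sum does not stand for the whole list. The CD45- level of its markers was a median of 1.04% of the CD45+ level in 66cl4 (highest 210%) and 1.99% in 67NR (highest 185%). The 6 epithelial markers summed to 6057 to 6844 in 66cl4 and to 125 to 391 in 67NR, without overlap and in the direction of Ebi3 and Il12rb1. The 6 fibroblast markers, at 7972 to 13665 and 10507 to 17281, overlapped. The part of these lists in the differences was not tested.

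The comparison of CD45+ with CD45- cells within a tumour asked which of the genes were carried by the immune cells. It shares the CD45+ libraries with the comparison described first, and Il23a and Il17ra are again given without a test. In 66cl4 tumours, 5 of the other 7 genes passed the filter, 4 were higher in CD45+ cells and none was lower, against a background of 23.9% and 20.5% of all genes. In 67NR tumours, 6 of 7 passed, 5 were higher and none was lower, against 20.2% and 19.6%. Some passed the filter only through CD45+ libraries, among them Il12a, Il12b and Il27 in 66cl4 and Il12b, Il27, Ebi3 and Il23r in 67NR. Their direction was largely set by that, so these counts and the p-values of those genes are no independent support.

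Il12b lay almost wholly on the CD45+ side, with 0.198% of its CD45+ level in CD45- cells of 66cl4 and 3.0% in 67NR. In 66cl4 the 911 counts in CD45+ libraries stood against 2, a ratio of 508 (95% interval 140 to 4199), with an edgeR adjusted p of 1.49e-07. In 67NR the level was 32.6-fold higher in CD45+ cells (log2 fold change 5.03, SE 0.374, edgeR adjusted p = 3.83e-07). Il27 was higher in CD45+ cells by a log2 fold change of 5.44 in both tumours (SE 0.634 and 0.495, edgeR adjusted p = 6.07e-06 and 2.14e-06).

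Il12a differed between the tumours in this respect. In 66cl4 it was 29.5-fold higher in CD45+ cells (log2 fold change 4.88, SE 0.681, edgeR adjusted p = 3.12e-05), in 5 of 5 animals. In 67NR the CD45- level was 86.4% of the CD45+ level, the CD45+ library was higher in 3 of 5 animals, and the log2 fold change was 0.21 (SE 0.405, edgeR adjusted p = 0.669). Without the CD45+ library of 67NR animal 6 it was -0.24. The leukocyte markers in these CD45- libraries were at 0.990 to 2.34% of their CD45+ level.

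Ebi3 and Il12rb1 showed the other arrangement. Ebi3 was 45.0-fold higher in CD45+ cells of 67NR (log2 fold change 5.49, SE 0.414, edgeR adjusted p = 4.38e-07) and 5.71-fold higher in 66cl4 (log2 fold change 2.51, SE 0.212, edgeR adjusted p = 3.28e-07). Its CD45- level was 2.14% of the CD45+ level in 67NR, within the range of the leukocyte markers, and 17.1% in 66cl4, above their 0.322 to 0.873%. Il12rb1 was 9.24-fold higher in CD45+ cells of 67NR (log2 fold change 3.21, SE 0.461, edgeR adjusted p = 8.58e-05). In 66cl4 its mean was 140% of the CD45+ mean in CD45- cells, higher there in 3 of 5 animals, and the test was not passed (log2 fold change -0.49, SE 0.254, edgeR adjusted p = 0.101). The difference between tumours in these gate effects was not tested as such.

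Il23r was at 0 in all 5 CD45- libraries of 66cl4, 40.5-fold below CD45+ cells when set at the floor of 3 counts over the group (exact permutation p = 0.00794). The 95% interval of that ratio, for counting error only, began at 32.4. In 67NR 98 counts stood against 1, a ratio of 133 (95% interval 23.2 to 5286, edgeR adjusted p = 9.36e-06). Il17a was at 0 in all CD45- libraries, at that floor 4.83-fold lower in 66cl4 and 10.4-fold lower in 67NR (exact permutation p = 0.00794 and 0.0476). Its 95% intervals, for counting error only, began at 3.40 and 7.77. In all, 7 such permutation tests were run, and their p-values are not adjusted. They do not use the pairing of gates by animal: an exact sign-flip test within the 5 animals gave p = 0.0625, the smallest it can give, for Il23r and Il17a in 66cl4 and p = 0.125 for Il17a in 67NR, so none of the 3 passed once paired. Without 66cl4 animals 5 and 6 the smallest p that 3 against 3 libraries allow is 0.1, which both Il23r and Il17a reached in 66cl4.

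Il23a, as a description, was at 0.832 to 3.12 normalised counts in CD45- cells of 66cl4 against 16.7 to 70.4 in CD45+ cells (log2 fold change 3.81, SE 0.562). Without animals 5 and 6 that value was 2.83. In 67NR it was near the floor in both gates, with 5 counts in CD45+ and 9 in CD45- libraries. Il17ra was present on both sides of the gate: its CD45- level was 14.6% of the CD45+ level in 66cl4 and 17% in 67NR (log2 fold changes 2.75, SE 0.169, and 2.55, SE 0.135).

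**Figure D4:**
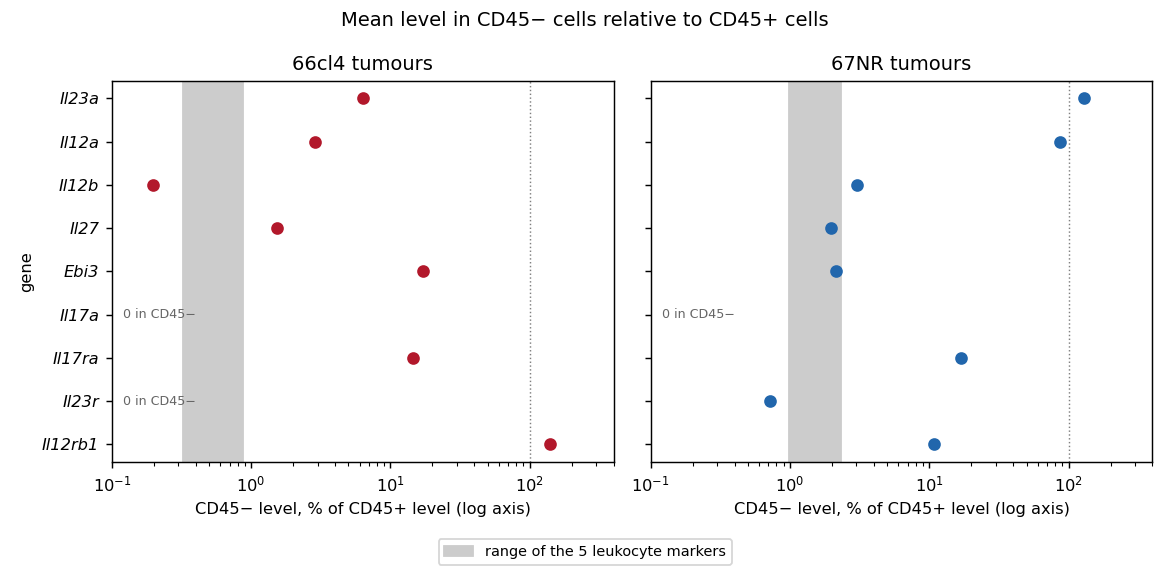
Mean CD45- level of each gene as a percentage of its mean CD45+ level, on a log axis, in each tumour, with the range of the 5 leukocyte markers in grey and a dotted line at 100%. Il12rb1 in 66cl4 (140%) and Il12a in 67NR (86.4%) lie near the line; the 67NR value of Il23a rests on 5 and 9 counts.

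The other genes of the pathway were described from 6 lists of 68 genes that hold none of the 9. In CD45+ cells 56 of the 68 passed the filter, 3 were called higher in 66cl4 and 15 lower (edgeR), beside 5.01% and 6.82% of all genes tested, and the median log2 fold change of these 56 was -0.08 against 0.01 over all genes tested. Without 66cl4 animals 5 and 6 the called genes numbered 11 in place of 18. In CD45- cells 46 passed, with 10 called higher and 14 lower, beside 13.2% and 18.9% of all genes, and a median of -0.0022 against -0.01.

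Genes of type 1 lymphocytes and IL-12 targets were lower in 66cl4 CD45+ cells in 8 of 11 tested, beside 6.82% of all genes, none was higher, and the median log2 fold change was -1.97. Ifng, which encodes interferon gamma, was at 25.1, 40.3 and 68.5 normalised counts (lowest, median, highest) in 66cl4 and at 108, 443 and 617 in 67NR, 8.43-fold lower without overlap (log2 fold change -3.08, SE 0.430, edgeR adjusted p = 0.000769). The cytotoxic genes Gzmb and Prf1 were 6.29-fold and 5.02-fold lower, with overlapping groups (edgeR adjusted p = 0.0148 and 0.0328). Il12rb2, the second chain of the IL-12 receptor, was at 233 to 385 in 66cl4 and 209 to 1667 in 67NR (log2 fold change -1.55, SE 0.441, edgeR adjusted p = 0.0299), and was the only 1 of 9 receptor chains and kinases called. The natural killer marker sums given above fell on the same side, and their part was not tested.

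Of 12 genes of the type 17 lineage, 9 were tested in CD45+ cells, none was called higher and 2 were called lower, beside 6.82% of all genes tested: Trdc, a constant region of the gamma delta T cell receptor (log2 fold change -2.03, edgeR adjusted p = 0.0175), and Il1r1, the IL-1 receptor (-1.79, edgeR adjusted p = 0.00480). The other lymphocyte cytokines Il21 and Il22 had means of 3.03 and 1.03 normalised counts in 66cl4 and 2.97 and 1.05 in 67NR. Of the other IL-17 family members, Il17f had means of 2.92 and 2.57, Il17c and Il25 were at 0 in every library, and 2 of 9 passed the filter. Il17rb, which binds IL-17E, was lower in 66cl4 (log2 fold change -1.43, SE 0.277, edgeR adjusted p = 0.00383).

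Among 13 tested IL-17 signalling and target genes in CD45+ cells, Cxcl2, a chemokine for neutrophils that the study also listed on these libraries, was the 1 called higher, with 18742 to 48952 normalised counts in the 66cl4 libraries and 3404 to 16858 in those of 67NR (log2 fold change 1.91, SE 0.412, edgeR adjusted p = 0.00778). Mmp3, a matrix protease of stromal cells, and Csf2, which encodes GM-CSF, were lower (log2 fold changes -4.46 and -1.90, edgeR adjusted p = 0.000943 and 0.00435). The 6 fibroblast markers summed to 154 to 1380 in the 66cl4 and 582 to 2302 in the 67NR libraries of this gate, and their part in the value of Mmp3 was not tested. Among 12 regulators of subunit transcription, Rel, an NF-kappaB subunit, and Cebpb were about 2.01-fold and 2.05-fold higher in 66cl4 (edgeR adjusted p = 0.00284 and 0.00645). Batf3, a factor of cross-presenting dendritic cells, was 3.09-fold lower (edgeR adjusted p = 0.00357).

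**Figure D5:**
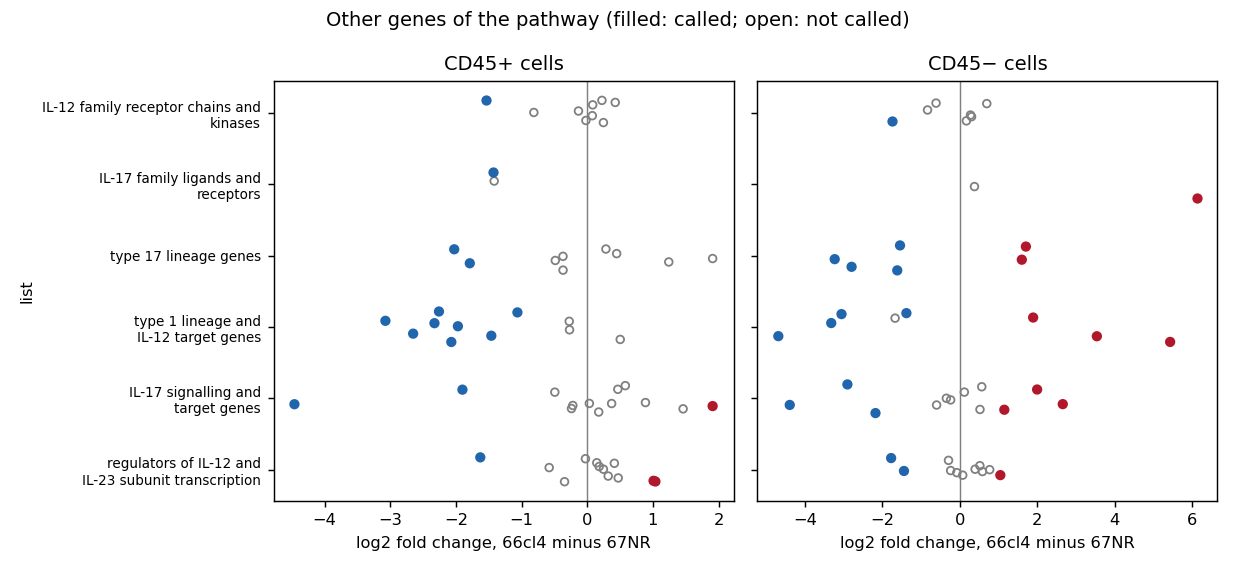
Log2 fold change between 66cl4 and 67NR of the genes of 6 pathway lists that passed the count filter, in CD45+ and in CD45- cells (vertical scatter within a list only separates the points). Of the type 1 list in CD45+ cells 8 of 11 genes are called lower, and in CD45- cells Il17rd (6.12) and Eomes (5.44) stand farthest to the right. Both passed the filter through the 66cl4 libraries.

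In CD45- cells the lists split. Of 8 tested type 1 genes, 3 were higher and 4 lower in 66cl4. Eomes, a T-box factor of natural killer and T cells, was at 173, 191 and 200.1 normalised counts (lowest, median, highest) in 66cl4 and 1.75, 2.63 and 8.59 in 67NR, 43.3-fold higher (log2 fold change 5.44, SE 0.287, edgeR adjusted p = 1.10e-09). Il18rap, a chain of the IL-18 receptor, was 11.7-fold higher (edgeR adjusted p = 1.27e-09) and Cxcr3 was 3.72-fold higher (edgeR adjusted p = 0.00944). The sums of natural killer and T cell markers in these CD45- libraries were 1.25 to 55.9 and 14.3 to 43.9 in 66cl4 against 20.5 to 92.3 and 29.7 to 131 in 67NR. Ifng and its target chemokines Cxcl9 and Cxcl10 were lower (log2 fold changes -4.69, -3.32 and -3.06, edgeR adjusted p = 8.17e-06, 0.00102 and 1.31e-07). Eomes passed the filter through the 66cl4 libraries and Ifng through those of 67NR. Their direction was largely set by that, so their p-values and their part in the counts are no independent support.

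The IL-17 genes of CD45- cells were divided as well. Il17rd, a receptor-like member of the family, ranged from 465 to 550.0 in the 66cl4 libraries and from 2.63 to 11.3 in those of 67NR, 69.5-fold higher (log2 fold change 6.12, SE 0.253, edgeR adjusted p = 1.07e-10). Of 12 tested target genes, 3 were higher, Mmp13, Cxcl5 and the adaptor Traf3ip2 (log2 fold changes 2.66, 2.00 and 1.15, edgeR adjusted p = 2.73e-05, 4.31e-08 and 1.90e-06). Another 3 were lower, Il6, Mmp3 and Cxcl1 (log2 fold changes -4.40, -2.91 and -2.18, edgeR adjusted p = 3.47e-09, 0.000193 and 0.000106). Of the type 17 list, Ahr was higher (1.6, edgeR adjusted p = 5.71e-07) and Irf4, Rora and Maf led the 4 that were lower (-3.24, -2.80 and -1.62, edgeR adjusted p = 0.000250, 1.49e-07 and 0.0293). Stat4, which relays IL-12 signals, was at 3.74 to 6.66 in 66cl4 and 9.65 to 28.9 in 67NR (log2 fold change -1.77, edgeR adjusted p = 0.000674). Of the regulators, Rel was higher (1.05, edgeR adjusted p = 4.90e-06), and Spi1 and Atf3 were lower (-1.78 and -1.44, edgeR adjusted p = 0.00732 and 0.00517). Il17rd passed the filter through the 66cl4 libraries, and Irf4 and Stat4 through those of 67NR. The direction of these 3 was largely set by that, so their p-values and their part in the counts are no independent support. Ptprc ranged from 10.6 to 161 normalised counts in these 66cl4 libraries and from 145 to 473 in those of 67NR, ranges that overlapped. The part of residual leukocytes in the genes that were lower in 66cl4 was not tested.

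Between the gates, 36 of 55 tested pathway genes were called higher in CD45+ cells of 66cl4 and 8 lower, beside 23.9% and 20.5% of all genes (edgeR). In 67NR 35 of 56 were higher and 7 lower, beside 20.2% and 19.6%. Some passed the filter only through the gate where they were high, among them Stat4, Il12rb2, Il27ra, Ccr6, Irf4, Tbx21 and Batf3 in 66cl4. In 67NR Il12rb2 and Il27ra were among them. Their direction was largely set by that, so these counts and the p-values of those genes are no independent support. Several receptor and lineage genes of lymphocytes were on the CD45+ side: the log2 fold changes of Stat4, Il12rb2 and Il27ra were 7.53, 7.04 and 5.94 in 66cl4 and 5.78, 6.66 and 5.62 in 67NR, with edgeR adjusted p between 4.81e-10 and 4.70e-06. Those of Prf1 and Gzmb were 6.70 and 6.60 in 66cl4 and 7.47 and 7.58 in 67NR, and Tbx21 in 66cl4 (6.57) and Eomes in 67NR (7.34) completed the leading genes of the type 1 list. Eomes and Il18rap of that list were not called in 66cl4 (log2 fold changes -0.17 and -0.69), where their means were higher in CD45- cells. Of the type 17 list, Irf4, Ccr6 and Trdc led in 66cl4 (9.01, 8.91 and 6.86) and Trdc, Ccr6 and Batf in 67NR (7.67, 5.96 and 5.44). Cxcl2 was the target gene with the largest difference in both (8.18 and 5.67), followed by Il6 (3.41) and Mmp13 (2.39) in 66cl4 and by Mmp13 (5.30) and Csf2 (3.95) in 67NR. Spi1, Atf3 and Batf3 led the regulators in 66cl4 (7.67, 6.40 and 6.24), and Irf8, Spi1 and Irf5 in 67NR (5.70, 5.50 and 5.50).

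On the CD45- side stood the IL-17 receptor chain Il17rc, the partner of IL-17RA, with log2 fold changes of -4.27 in 66cl4 and -2.49 in 67NR (edgeR adjusted p = 2.09e-07 and 0.000387), and Il17rd in 66cl4 (-4.31, edgeR adjusted p = 1.90e-08), whereas Il17rb in 67NR was on the CD45+ side (4.95). Il17rc was at 268 to 381 normalised counts in CD45- libraries of 66cl4 and at 139 to 383 in 67NR, so transcripts of both chains of the IL-17A receptor were counted in the CD45- cells of each tumour. Il6st, the shared gp130 chain, was at -1.50 and -1.47, and Il1r1 at -2.60 and -2.35. The chemokine Cxcl5 was at -4.34 and -2.14 and Mmp3 at -4.02 and -2.46, with Cxcl1 (-2.25) in 67NR, and Nfkb2 (-1.09) in 66cl4. For the genes from Il6st on, the edgeR adjusted p lay between 8.70e-08 and 0.00248.

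The genes whose pattern over the 20 libraries was most like each member were ranked among 16453 genes by Pearson's r of log2(CPM + 1). These r follow the gate and tumour groups that the libraries share and are descriptions with no test. Il23a was most like Gabbr2, Olfr324 and 9130230L23Rik (r = 0.959, 0.944 and 0.933), and Il12a most like Siglecg, 1600020E01Rik and Zfp318 (0.952, 0.915 and 0.911). Il12b was most like Gm47567, Clec9a and Gcsam (0.983, 0.981 and 0.981), of which Clec9a is a surface receptor of dendritic cells. For Il27 the genes were Klk4, Atp2a1 and Slamf8 (0.988, 0.984 and 0.976), and for Ebi3 they were Tmem229b, Rps6ka1 and Tyk2 (0.990, 0.989 and 0.987), of which Tyk2 encodes a kinase of the IL-12 and IL-23 receptors. Il17ra was most like Ahcyl2, Diaph1 and Coro2a (0.994, 0.991 and 0.990), Il23r most like Stag3, Olfm1 and Gm5278 (0.969, 0.968 and 0.964), and Il12rb1 most like Eomes, Pla2g16 and Lgals3bp (0.948, 0.943 and 0.935). Il17a did not pass the filter and was not ranked.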

How the data were processed

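After read trimming (fastp), the authors ran Salmon 1.3.0 on transcripts and summed the results by gene. The deposited table holds unnormalised estimated counts for 52783 genes. The methods and labels name GRCh38, a human reference, but the identifiers are those of mouse, so no coordinates of the counted genes are given. Estimated counts were rounded to whole numbers. Symbols were matched for 51492 identifiers.

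Levels are counts divided by DESeq2 1.42.0 size factors over all 20 libraries. TPM used the median transcript length of GENCODE M21, which 1291 genes with 2.58% of counts lacked. Groups came from sample titles. Each comparison was an edgeR 4.0.16 quasi-likelihood test in R 4.3.3 (TMM, filterByExpr with a minimum count of 10 and total of 15, robust fit) on the 2 groups concerned, with Benjamini-Hochberg adjustment over all genes tested. A gene was called when its adjusted p was under 0.05 and its log2 fold change was beyond 1 in size. Members below the filter were tested by an exact two-sided permutation test of means. Replicates are animals, and no pair was alike within sampling noise. A group at 0 was set at a floor of 3 counts over its 5 libraries, which covers the counting error of that group only. Scripts were tested on simulated data.

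The members and lists were chosen with earlier results of these data known. Named genes are the 9 members, up to 3 called genes in each direction with the largest fold change per list and comparison, the 3 genes most like each member, and Ptprc. Genes outside this rule (Il21, Il22, Il17f, Il17c, Il25) were named after their values were seen, and 1 gene that the rule names is not reported here. Alternatives were DESeq2, RLE factors, no filter, all 20 libraries in the fit, a replicate block, leaving out libraries and, added after seeing the data, sign flips within animals and the longest transcript length. Libraries of both gates with 1 animal number were taken as 1 animal. Their deviations from group means correlated at 0.0365 to 0.275 (66cl4 animals) and at -0.0219 to 0.382 (67NR animals).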

Additional observations from a re-analysis of the deposited data

Results flagged for a closer look

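Of 36 groups of 5 libraries examined, 4 held a value that stood apart from the others of its group by Dixon's criterion. A chance rate of about 1 group in 20 holds for normally distributed values. It does not apply to groups near 0, where a single nonzero value beside values of 0 is always flagged. Il23a was at 70.4 normalised counts (73 counts) in CD45+ cells of 66cl4 animal 5, and at 16.7 to 24.2 in the other 4. Il12a was at 47.9 (40 counts) in CD45+ cells of 67NR animal 6, and at 11.3 to 20.9 in the others. The remaining values rest on few counts: Il27 at 1.66 (2 counts) in CD45- cells of 66cl4 animal 5, and Il23r at 0.781 (1 count) in CD45- cells of 67NR animal 6, both against 0 in the other 4 libraries.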

How the results depend on the processing

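Leaving out single libraries gave 3 called members in CD45- cells in every case, 4 to 5 between the gates of 66cl4 and 5 in 67NR, and 14 to 20 called pathway genes in CD45+ cells. Without 66cl4 animals 5 and 6, the pathway genes called in CD45+ cells were 11 (18 with them), the difference in mean level of Il12b between CD45- groups was -8.10 (exact permutation p = 0.0536), and the gate differences of Il17a and Il23r in 66cl4 were 2.97 and 26.2 normalised counts (p = 0.1, the smallest that 3 against 3 libraries allow in an exact permutation test). These comparisons hold fewer libraries, and the part of that in the changes was not tested. With no count filter the pathway genes called in CD45+ cells were 12. With the replicate block (libraries paired by number) the called members stayed at 3, 4 and 5, the pathway genes called were 18 in CD45+ cells, and no edgeR call of a member changed. With exact sign flips within animals as the replicate block, chosen after seeing the data, the gate differences of Il17a and Il23r in 66cl4 (2.59 and 22.4 normalised counts) had p = 0.0625, the smallest that 5 pairs allow, and that of Il17a in 67NR (4.97) had p = 0.125. The number marks an animal between gates, and only a shared number between tumours, where the correlations of deviations were 0.0001 to 0.139 (CD45+) and -0.209 to -0.0205 (CD45-). Depth limits Il17a in all groups, and Il23a, Il12b, Il27 and Il23r in CD45- cells, where differences of a few counts were not detectable.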
